A study of Mus musculus with 16 samples.

Results

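The state of the transverse colon 48 h after 1 dose of SZN-1326-p was compared with the uninjured colon in 7 of the 16 mice of a single-cell RNA-seq series. The 3 mice of the treated group received dextran sulfate sodium (DSS) at 4% in their drinking water throughout and 10 mg/kg SZN-1326-p on day 4, and their colons were taken on day 6; the authors' cell table names this condition SWAP. The 4 uninjured mice had neither DSS nor a dose, and 2 of them were taken with the 24 h and 2 with the 48 h mice. All were female C57Bl/6J mice aged 7 weeks. The 7 mice gave 11395 of the 22717 annotated cells, 5110 from the treated and 6285 from the uninjured animals. Values of the 3 mice that had DSS and 10 mg/kg of the control antibody anti-GFP for 48 h (3253 cells) are set beside these, because the treated mice also had DSS and no group had SZN-1326-p without it.

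DSS is a detergent-like polymer that erodes the colonic epithelium and causes acute colitis while it is being drunk. SZN-1326-p is an engineered antibody-based protein that activates Wnt signalling through Frizzled and LRP receptors. In the colonic crypt, Wnt proteins from subepithelial fibroblasts keep stem cells at the base dividing, R-spondins amplify that signal, and BMP signalling rises towards the surface, where absorptive colonocytes and goblet cells mature. Regenerating crypts are known to switch on a fetal-like programme that includes Ly6a (Sca-1), and macrophages, monocytes and neutrophils fill the injured lamina propria.

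An epithelial fraction and the digested lamina propria of each colon were sorted by flow cytometry and run on 10x Genomics reagents, so the share of each tissue layer depends on the sort as well as on the tissue. Levels are given as normalized UMIs per cell, the mean over all cells of a mouse in the authors' epithelial, stromal or immune layer, and per-mouse values follow replicate order, with the uninjured mice of the 24 h collection first. The libraries of the treated mice held 1463 to 2033 cells and 16575709 to 18585110 UMIs, and those of the uninjured mice 1323 to 1958 cells and 10750984 to 21335421 UMIs. The median mitochondrial share of a cell's UMIs within the epithelium was 30.2 to 36.0% in treated and 31.3 to 34.1% in uninjured mice. In these 7 libraries, 18 of 11376 distinct barcodes occurred in more than 1 library. The 11 epithelial marker genes summed to 167 to 180 per epithelial cell in treated and 301 to 503 in uninjured mice. They summed to 3.80 to 10.2 in the stroma and 8.23 to 19.8 in the immune layer of treated mice, and to 6.28 to 13.2 and 10.2 to 19.0 in those of uninjured mice, so epithelial transcripts were counted in cells of the other layers in both groups. The 12 immune markers summed to 0.181 to 1.31 in the epithelium of treated mice and 0.137 to 0.375 in that of uninjured mice.

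The colon of treated mice still held a different set of cells from the uninjured colon, in all 3 layers. Mature absorptive cells, the main fibroblast of the crypt base and IgA plasma cells were nearly absent, and enterocyte precursors, injury-associated fibroblasts, inflammatory monocytes and activated neutrophils were far more frequent. The epithelium made up 31.6, 30.7 and 54.9% of the cells in the treated mice and 73.3, 70.7, 59.0 and 56.8% in the uninjured mice, with 22.7% ± 3.54 (SD, n = 3) after anti-GFP. The immune layer made up 23.2, 18.9 and 16.9% in treated and 7.90% ± 1.07 (SD, n = 4) in uninjured mice. Neither layer's shares overlapped between the groups. The exact two-sided permutation test of 3 against 4 mice has 35 arrangements and cannot give a p below 0.0571, which both layers reached, so no share can pass 0.05 and shares are described by overlap alone. Of the 46 annotated cell types, 23 (50.0%) had shares of their layer that did not overlap between the groups, 13 higher (28.3%) and 10 lower (21.7%) in treated mice.

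In the epithelium, 10 of 17 types (58.8%) did not overlap. Enterocyte, the authors' mature absorptive type, held 20.5, 24.0, 19.8 and 13.8% of epithelial cells in the uninjured mice and 0 of 2076 cells in the treated mice, which allows a share of up to 0.145%. ImmEntero2, an immature enterocyte type, went from 17.4% ± 3.96 (SD, n = 4) to 0 of the same 2076 cells, and ImmEntero1 from 9.22 to 0.788%. EnteroPrecur, the enterocyte precursor, held 36.3, 34.5 and 42.4% in treated mice against 0.928, 10.3, 15.2 and 10.3% in uninjured mice. Anti-GFP mice had 5.69% EnteroPrecur, so this share was high in the treated group and not in the colitis mice of the same day. The proliferating TA2 cells held 20.0, 26.5 and 15.0% in treated and 6.12% in uninjured mice, and 17.4% after anti-GFP. The type named AltEnteroPC held 14.5% ± 2.53 (SD, n = 3) against 2.68% ± 2.08 (SD, n = 4), and 18.9% after anti-GFP. The more mature AltEnterocyte was absent among 4049 uninjured cells (up to 0.0741% allowed), and held 2.16% in treated mice (44 cells) and 14.4% after anti-GFP. StemCell shares overlapped, with 10.8% ± 0.367 (SD, n = 3) in treated and 10.3% ± 2.19 (SD, n = 4) in uninjured mice, beside 6.30% after anti-GFP. Goblet cells of the type BasalGoblet were fewer (3.96% ± 1.15 against 11.7% ± 4.24, SD, n = 3 and 4). The goblet types Goblet1 (1.80 against 1.74%) and Goblet2 (1.91 against 1.57%) overlapped between the groups.

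**Figure D1:**
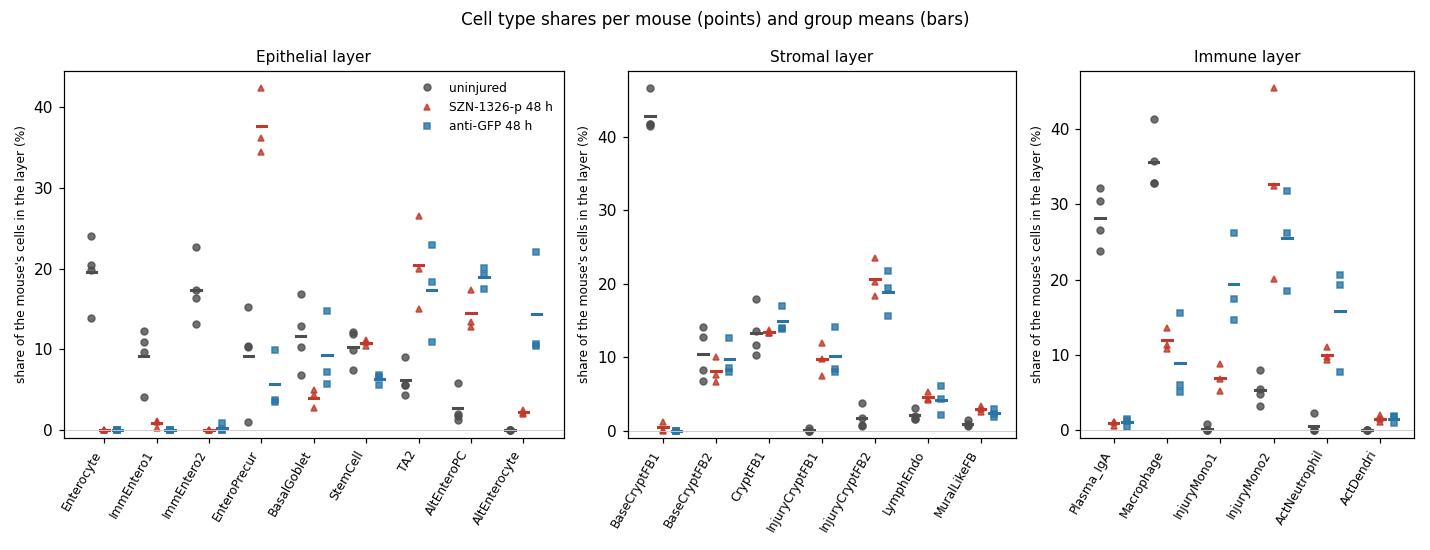
Share of each cell type in its layer (%, y axis) for 22 annotated types (x axis), with 1 point per mouse and bars at the group means; circles are uninjured, triangles SZN-1326-p 48 h and squares anti-GFP 48 h mice. Enterocyte, BaseCryptFB1 and Plasma_IgA lie near 0 in every treated mouse, and EnteroPrecur is above 34% in the 3 treated mice alone.

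In the stroma, 7 of 18 types (38.9%) did not overlap. BaseCryptFB1, a fibroblast of the crypt base, was the commonest stromal type in uninjured mice at 42.9% ± 2.51 (SD, n = 4), and held 0, 0.136 and 1.22% in treated mice and none of the anti-GFP cells. InjuryCryptFB1 held 9.72% in treated against 0.0735% in uninjured mice and InjuryCryptFB2 20.7 against 1.69%, with 10.2 and 18.9% after anti-GFP. CryptFB1 (13.4 against 13.3%) and BaseCryptFB2 (8.04 against 10.5%) overlapped between the groups and could be compared within type. In the immune layer, 6 of 11 types (54.5%) did not overlap. IgA plasma cells held 0.912% in treated and 28.3% ± 3.77 (SD, n = 4) in uninjured mice, and macrophages 11.9% ± 1.49 (SD, n = 3) and 35.7% ± 4.05 (SD, n = 4). InjuryMono2, an injury-associated monocyte, held 20.1, 32.5 and 45.5% in treated mice against 5.39% in uninjured mice, and activated neutrophils held 10.1 against 0.575%. A falling share within a layer can reflect fewer cells of that type or more of the others. Taken as shares of all cells, 23 types also did not overlap, 20 of them among the 23 above. Macrophage, AltEnteroPC and the stromal type FB3 did not overlap within their layer but overlapped as shares of all cells. Macrophages then held 2.38% in treated against 2.79% in uninjured mice, AltEnteroPC 5.51 against 1.83% and FB3 0.650 against 0.606%.

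In the epithelial layer 3142 of 10795 genes tested (29.1%) differed from the uninjured level, 1041 higher (9.64%) and 2101 lower (19.5%), by limma at a Benjamini-Hochberg adjusted p under 0.05. Taking the mean of the deposited log2 values turned this split to 1680 higher and 1406 lower, and median-of-ratios scaling gave 1395 and 1818. For the anti-GFP mice, 1503 of the 10795 genes (13.9%) differed from uninjured in the same model, 738 higher (6.84%) and 765 lower (7.09%), and 1345 (12.5%) differed between SZN-1326-p and anti-GFP; these comparisons share mice with the first. A layer mean mixes cell types, and its 3 commonest types were Enterocyte, ImmEntero2 and BasalGoblet in uninjured mice and EnteroPrecur, TA2 and AltEnteroPC in treated mice. Fewer cells of a type and less RNA per cell cannot be told apart in such a mean. Therefore the 5 types with at least 10 cells in each of the 7 mice (AltEnteroPC, BasalGoblet, StemCell, TA1 and TA2) were also averaged at equal weight, where 256 of 10563 genes differed, 154 higher and 102 lower. TA1 entered with 50 treated and 105 uninjured cells, and 10 of the 16 mice had all 5 types and entered that fit.

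Genes of mature colonocytes were far below the uninjured level. Of 41 measured colonocyte genes 28 fell and 1 rose, with a median log2 difference of -1.89 beside -0.07 over all genes tested. Krt20 (chr11:99428403-99438150, minus strand), a keratin of surface epithelium, was at 0.527, 0.561 and 0.44 in treated mice and at 10.1, 12.3, 10.1 and 8.01 in uninjured mice. The anti-GFP mice lay between, at 4.62, 2.67 and 3.03, with no overlap among the 3 groups. Krt20 fell by 4.28 ± 0.23 (SE, log2 of the level plus 0.01; adjusted p = 1.92e-09). Guca2a, which encodes guanylin, a peptide that drives fluid secretion, was at 5.28, 5.21 and 4.72 in treated and 87, 138, 102 and 81.6 in uninjured mice, a log2 difference of -4.30 ± 0.30 (adjusted p = 2.79e-08). Slc26a3, the chloride and bicarbonate exchanger of the colonocyte surface, was at 0.857, 1.14 and 1.46 against 11.1, 10, 9.05 and 6.37, and at 4.41, 2.58 and 3.46 after anti-GFP. Both genes again placed the treated mice lowest and the anti-GFP mice between. Mal, a sorting protein of the apical membrane (-6.58 ± 0.35), Clca4a, at chr3:144952480-144975045 (-6.22 ± 0.41), Tmigd1 (-5.50 ± 0.29) and the alkaline phosphatase gene Alpi (-3.75 ± 0.36) had the same order of groups. Fabp2, the intestinal fatty acid binding protein, did not: it was at 2.5, 3.19 and 2.35 in treated mice and 3.77, 3.1 and 2.64 after anti-GFP, both far below the uninjured 15.3, 32.1, 20.5 and 21. Car1, a carbonic anhydrase, fell by 2.26 on the log2 scale (adjusted p = 0.000508), with 1 uninjured mouse at 16.7 and the other 3 at 40.5 to 41.0.

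Some goblet and tuft cell genes were lower as well, where 19.5% of all genes tested in the layer were lower. Enteroendocrine genes, also of secretory cells, did not share this: of 14 measured 1 fell and none rose. Of 23 goblet cell genes 9 fell and none rose (median -0.84), and 7 fell and 1 rose on the mean of the log2 values. Of 10 tuft cell genes 4 fell and none rose, and none passed in either direction on the mean of the log2 values. Muc2, the mucin of the mucus layer, was at 35.1, 9.19 and 42.7 in treated mice against 132, 54.6, 54.7 and 123, and at 82, 105 and 117 after anti-GFP. The treated values lay below all others, but the fall of 1.80 ± 0.47 (adjusted p = 0.00767) no longer passed when treated mouse 2 was left out (adjusted p = 0.0745). Within BasalGoblet cells Muc2 was at 462 and 542 in the 2 treated mice with enough cells and at 628, 666, 420 and 806 in uninjured mice (-0.30 ± 0.25, adjusted p = 0.795). Spdef, the transcription factor of goblet maturation, fell by 1.42 ± 0.28 (adjusted p = 0.00097) in the layer. The tuft cell genes Rgs13 (-1.61 ± 0.41) and Avil (-1.32 ± 0.33), a signalling regulator and an actin-binding protein, fell too, although neither passed on the mean of the log2 values (adjusted p = 0.222 and 0.195). In anti-GFP mice, 9 of the 10 tuft genes were above the uninjured level by the test.

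**Figure D2:**
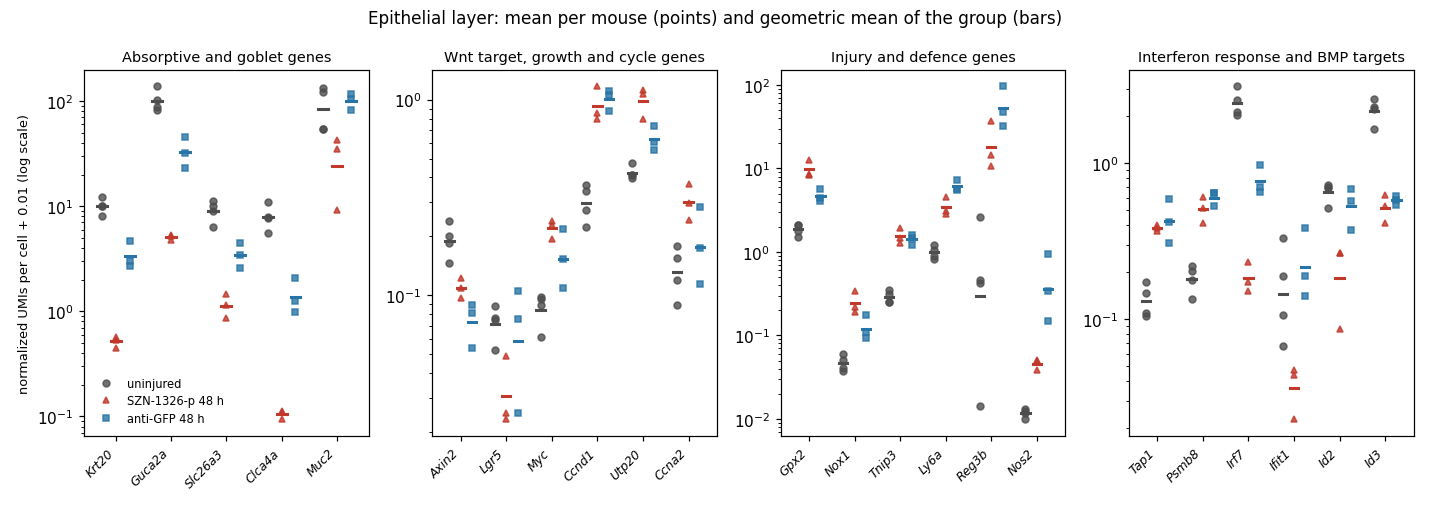
Level of 23 genes in the epithelial layer (normalized UMIs per cell plus 0.01, log scale), with 1 point per mouse and bars at the geometric means of the uninjured (circles), SZN-1326-p 48 h (triangles) and anti-GFP 48 h (squares) mice. Of the genes plotted, Krt20, Guca2a and Clca4a have the largest falls in treated mice, and Gpx2 is highest there, at 8.3 to 12.8 against 1.51 to 2.11 in uninjured mice.

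Wnt target genes did not move as 1 block. Of 13 measured targets 6 rose and none fell in the layer (median 0.26), with 6 and 1 on the mean of the log2 values. Ccnd1, the cyclin that starts the cell cycle, was at 1.16, 0.845 and 0.79 in treated mice against 0.356, 0.214, 0.262 and 0.33, a log2 difference of 1.65 ± 0.22 (adjusted p = 2.04e-05), and was equally high after anti-GFP at 0.86, 1.04 and 1.1. Myc, the growth-promoting transcription factor (1.38 ± 0.26), the crypt-base receptor Ephb2 (1.05 ± 0.21) and the progenitor factor Sox9 (0.71 ± 0.16) rose. Axin2, a direct feedback target of the pathway, was at 0.113, 0.0988 and 0.0865 in treated and 0.229, 0.136, 0.175 and 0.191 in uninjured mice. It did not pass (-0.80 ± 0.39, adjusted p = 0.131). Every treated mouse was below every uninjured mouse, but 44.6% of the genes tested in this layer did not overlap between these groups in 1 direction or the other. The anti-GFP mice were at 0.0795, 0.044 and 0.0714. Lgr5, the stem cell R-spondin receptor, was at 0.0151, 0.0387 and 0.0134 against 0.0424 to 0.0786 (-1.23 ± 0.47, adjusted p = 0.0583). At equal weight of the 5 types, both were below the uninjured level, Lgr5 by 2.34 and Axin2 by 1.15 on the log2 scale (adjusted p = 0.00101 and 0.0265). Rnf43, which removes Frizzled from the membrane, rose by 0.77 ± 0.23 in the layer (adjusted p = 0.0171), and this call was lost without treated mouse 1 (adjusted p = 0.101), without uninjured 24 h mouse 2 (0.0606) and without uninjured 48 h mouse 1 (0.0648).

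Among the Wnt receptors, 2 of 13 rose and 3 fell, and on the mean of the log2 values 2 rose and 1 fell. These counts lie near the 9.64% higher and 19.5% lower of all genes tested, so they are no result about the list. The Frizzled receptor Fzd9 was at 0.0045, 0.00466 and 0.00792 in treated mice and 0.123, 0.0451, 0.0541 and 0.0788 in uninjured mice (-2.36 ± 0.36, adjusted p = 9.83e-05), as low as after anti-GFP (0.00418 to 0.0142). Fzd1 rose by 0.84 ± 0.20 and the coreceptor Lrp5 by 0.65 ± 0.18, on the log2 scale. Within BasalGoblet cells, Fzd9 also fell (-2.96 ± 0.57, adjusted p = 0.0274), but that call was lost on leaving out any uninjured mouse or treated mouse 1, with adjusted p of 0.111 to 0.197. Only 2 treated mice had enough BasalGoblet cells, so without mouse 1 the lone treated mouse was assumed to vary like the other groups.

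Growth and division genes rose in the pooled layer. All but 6 of 34 ribosome biogenesis genes rose (28 rose and none fell, median 0.76), and so did 20 of 34 mitosis genes (median 0.84) and 13 of 33 DNA replication genes (median 0.47), with none lower. In the anti-GFP mice 10, 1 and 3 of these lists' genes were above the uninjured level, beside 6.84% of all genes tested. Utp20, a factor for processing of the small ribosomal subunit, was at 0.787, 1.06 and 1.12 in treated and 0.386 to 0.466 in uninjured mice (1.22 ± 0.22), and Heatr1 (1.32 ± 0.28) and Nhp2 (1.14 ± 0.23) moved alike. The mitotic genes Cdca3 (1.38 ± 0.29), Ccna2 (1.18 ± 0.27) and Ccnb1 (1.15 ± 0.25) and the replication licensing gene Mcm2 (0.91 ± 0.22) rose. Mki67 overlapped, at 1.03, 1.42 and 1.09 against 1.15, 0.392, 0.416 and 0.728 (adjusted p = 0.107), and passed without uninjured 24 h mouse 1, the highest of the 4 (1.31, adjusted p = 0.0237). With the 5 types at equal weight, none of the 34 ribosome biogenesis and none of the 34 mitosis genes differed (medians 0.05 and -0.19), and 3 DNA replication genes were lower. Within TA2 cells, Mki67 was at 3.66, 3.55 and 4.54 in treated and 6.95, 4.23, 4.16 and 5.55 in uninjured mice (-0.39 ± 0.23, adjusted p = 0.565).

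In the pooled layer oxidase genes rose, and so did some antimicrobial genes. Gpx2 (chr12:76792333-76795554, minus strand), the glutathione peroxidase of crypt epithelium, was at 8.63, 12.8 and 8.3 in treated mice, 1.51, 1.78, 2.06 and 2.11 in uninjured mice and 4.45, 5.65 and 4.04 after anti-GFP. The 3 groups did not overlap, and the treated mice were highest. Gpx2 rose by 2.39 ± 0.23 (log2, adjusted p = 7.41e-07), where anti-GFP against uninjured gave 1.33 (adjusted p = 0.00106) and SZN-1326-p against anti-GFP 1.06 (adjusted p = 0.00971). Of 8 oxidase and nitric oxide synthase genes 5 rose and none fell (median 1.19). Nox1, the NADPH oxidase of colonic crypts, was at 0.211, 0.326 and 0.179 against 0.0274 to 0.0503 (2.38 ± 0.37, adjusted p = 0.000112), and its organizer and activator Noxo1 (0.83 ± 0.16) and Noxa1 (1.06 ± 0.22) rose. Reg3b (chr6:78370657-78373466), a secreted antibacterial lectin, was at 36.9, 14.6 and 10.6 in treated mice, 0.00444, 0.417, 0.448 and 2.58 in uninjured mice and 31.9, 96 and 46.9 after anti-GFP. Its rise of 5.94 ± 1.26 (adjusted p = 0.00502) had the same call without any 1 mouse, and was not passed on the mean of the log2 values (adjusted p = 0.286). Its relative Reg3g followed it (5.09 ± 0.83, adjusted p = 0.000878), and so did Slpi, a secreted protease inhibitor (3.05 ± 0.67). Of 15 antimicrobial genes measured 6 rose and 3 fell (median 0.34), and on the mean of the log2 values 3 rose and 2 fell. Of all genes tested in the layer 9.64% were higher and 19.5% lower, so the count of falls is no result about the list. The 3 that fell in the pooled layer were Lypd8, which keeps bacteria off the epithelium (-1.55 ± 0.33), and the serum amyloid genes Saa1 (-1.57 ± 0.34) and Saa2 (-1.60 ± 0.43). Within AltEnteroPC, Saa1 was higher instead, at 1.22, 7.37 and 8.87 against 0.28, 0 and 0.0304 (adjusted p = 0.0122). There 5 of 14 antimicrobial genes rose and none fell, beside 6.04% of all genes higher. In TA2 4 of 14 rose and none fell (0.825% of all genes higher), and in EnteroPrecur 4 of 12 rose and 1 fell (3.41 and 2.68%). None passed in StemCell or BasalGoblet.

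Of 24 injury and repair genes 7 rose and 7 fell, beside 9.64% of all genes tested in the layer higher and 19.5% lower. Ly6a (chr15:74994877-74998031, minus strand), the Sca-1 surface protein of regenerating epithelium, was at 3.08, 4.53 and 2.87 in treated, 0.893, 1.19, 1.03 and 0.819 in uninjured and 7.2, 5.46 and 5.68 in anti-GFP mice. The treated mice were above all uninjured and below all anti-GFP mice (1.80 ± 0.26 against uninjured, adjusted p = 5.81e-05). Its neighbour in the family, Ly6c1, rose by 3.87 ± 0.30 (adjusted p = 8.08e-08). Tnip3, an NF-kB inhibitor, was at 1.28, 1.45 and 1.93 against 0.238 to 0.34 (2.42 ± 0.25), the phospholipase Pla2g5 at 0.203, 0.272 and 0.183 against 0.0104 to 0.0134 (3.40 ± 0.27), and the sulfatase Sulf2, which edits heparan sulfate, at 0.249, 0.334 and 0.251 against 0.0185 to 0.0421 (2.81 ± 0.24). In the NF-kB and cytokine list 8 of the 21 measured genes rose and 1 fell, with Cxcl1, a neutrophil attractant, up by 2.34 ± 0.42 and Tnf by 2.19 ± 0.28. The immune marker sum in the epithelium was also higher in some treated mice (0.181 to 1.31 against 0.137 to 0.375), and its part in the cytokine values was not tested. Krt36, a keratin, was at 0.146, 0.281 and 0.35 in treated mice, 0.0209 to 0.0592 in uninjured mice and 0.0376, 0.0168 and 0.0786 after anti-GFP. It was high in the treated mice only, by 2.57 ± 0.39 against uninjured (adjusted p = 9.67e-05) and 2.39 against anti-GFP (adjusted p = 0.0012).

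Interferon response genes passed the test in the pooled epithelium about as often as other genes did. Of 29 measured, 8 passed, beside 29.1% of all genes tested, so the count is no result about the list. Among them 5 rose (Ifit2, Gbp7, Psmb8, Psmb9 and Tap1) and 3 fell (Irf7, Ifit1 and Rsad2), and the other 21 did not pass (median 0.22). Tap1, the antigen peptide transporter, and Psmb8, an immunoproteasome subunit, are neighbours in the major histocompatibility region, whereas Irf7, a transcription factor for type I interferon genes, and Ifit1, which binds viral RNA, lie elsewhere. The 250 bases upstream of the RefSeq start of these 4 genes (GRCm38.p6, each printed 5′ to 3′ on the gene's strand) are shown because the first pair rose and the second pair fell; capitals mark matches to GAAANNGAAA, the core of an interferon-stimulated response element, or TTCNNNGAA, a gamma-activated site, on either strand.
Tap1: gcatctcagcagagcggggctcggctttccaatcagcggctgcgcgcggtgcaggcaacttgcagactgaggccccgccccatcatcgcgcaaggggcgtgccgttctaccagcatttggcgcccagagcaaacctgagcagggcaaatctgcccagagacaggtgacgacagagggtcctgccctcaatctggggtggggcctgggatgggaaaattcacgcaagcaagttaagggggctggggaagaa
Psmb8: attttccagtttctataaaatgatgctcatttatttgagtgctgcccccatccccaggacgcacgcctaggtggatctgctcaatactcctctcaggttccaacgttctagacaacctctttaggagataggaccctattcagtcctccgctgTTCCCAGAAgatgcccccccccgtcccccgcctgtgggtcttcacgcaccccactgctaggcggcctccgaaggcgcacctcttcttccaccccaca
Ifit1: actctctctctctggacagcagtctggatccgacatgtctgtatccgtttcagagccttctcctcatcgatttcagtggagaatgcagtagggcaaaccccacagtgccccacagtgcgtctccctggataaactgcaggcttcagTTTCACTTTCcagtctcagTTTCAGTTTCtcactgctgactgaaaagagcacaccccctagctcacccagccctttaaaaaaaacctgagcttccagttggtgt
Irf7: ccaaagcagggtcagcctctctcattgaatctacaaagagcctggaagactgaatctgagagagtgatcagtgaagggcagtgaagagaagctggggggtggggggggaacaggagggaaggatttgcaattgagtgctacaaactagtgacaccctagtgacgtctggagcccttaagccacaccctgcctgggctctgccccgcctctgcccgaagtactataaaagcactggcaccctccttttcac
These windows are chr17:34187306-34187555 (plus strand) for Tap1, chr17:34197945-34198194 (plus) for Psmb8, chr19:34640639-34640888 (plus) for Ifit1 and chr7:141266425-141266674 (minus) for Irf7. The Psmb8 window holds 1 TTCNNNGAA match, the Ifit1 window 2 GAAANNGAAA matches, and the other 2 windows neither. Tap1 and Psmb9 are transcribed away from each other, and 225 bases of their windows are the same. Of the 5 genes that rose, 1 had GAAANNGAAA and 3 had TTCNNNGAA; of the 3 that fell, 2 and 0; and of the 17 with a window among those that did not pass, 11 and 6. Of all 27025 genes with windows of the same length, 3.46% had the first and 8.13% the second. A match is a description of the letters only.

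Tap1 was at 0.391, 0.377 and 0.36 in treated mice, 0.0995, 0.162, 0.0945 and 0.137 in uninjured mice and 0.299, 0.41 and 0.583 after anti-GFP, so both DSS groups were above the uninjured mice (1.57 ± 0.27, adjusted p = 0.000293 for SZN-1326-p). Psmb8 was at 0.508, 0.596 and 0.402 against 0.126 to 0.21 (1.47 ± 0.27), and Psmb9, another immunoproteasome subunit, rose by 1.30 ± 0.29. Irf7 was at 0.141, 0.224 and 0.163 in treated mice, 2.02, 3.1, 2.52 and 2.12 in uninjured mice and 0.969, 0.692 and 0.642 after anti-GFP. All treated mice were lowest, at -3.73 ± 0.23 against uninjured (adjusted p = 7.55e-09) and -2.07 against anti-GFP (adjusted p = 6.61e-05). Within EnteroPrecur, however, Irf7 was at 0.0413, 0.092 and 0.0964 against 0.102, 0.135 and 0.146 (adjusted p = 0.27), and at equal weight of the 5 types its difference was -0.25 (adjusted p = 0.848). Ifit1 was at 0.013, 0.0342 and 0.0374 in treated mice and 0.0572 to 0.323 in uninjured mice (-2.0 ± 0.43, adjusted p = 0.00252), with 0.377, 0.18 and 0.13 after anti-GFP. The anti-GFP mice thus overlapped the uninjured mice for Ifit1 and the treated mice did not. In all, 15 interferon genes rose and 1 fell after anti-GFP. Inside single epithelial types no interferon gene passed as lower in treated mice. In AltEnteroPC 6 of 28 rose, beside 6.04% of all genes tested there, in EnteroPrecur 5 of 16 (3.41%) and in TA2 4 of 26 (0.825%). None of 20 rose in StemCell and none of 22 in BasalGoblet.

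Readouts of BMP signalling, cell junctions and glycolysis were lower in the pooled epithelium. Of 10 BMP pathway genes 8 fell. The BMP target Id3, an inhibitor of differentiation factors, was at 0.519, 0.407 and 0.615 in treated mice and 1.66, 2.57, 2.3 and 2.22 in uninjured mice (-2.07 ± 0.37, adjusted p = 0.000729), close to the anti-GFP 0.604, 0.573 and 0.534. Id2 was at 0.256, 0.0773 and 0.255 against 0.507 to 0.716, and at 0.564, 0.364 and 0.679 after anti-GFP, and fell against both (-1.84 ± 0.33, adjusted p = 0.0006, and -1.53, adjusted p = 0.0103). Both remained lower at equal weight of the 5 types (-1.51 for Id2 and -1.45 for Id3). Of 24 junction genes 16 fell and none rose (median -0.68); on the mean of the log2 values 3 rose and 8 fell, with median-of-ratios scaling 3 rose and 12 fell, and at equal weight 1 rose and none fell. The claudin Cldn23 (-1.94 ± 0.20), the tight junction scaffold Tjp1 (-1.43 ± 0.28) and the desmosomal gene Dsp (-1.37 ± 0.33) were among them. Of 22 glycolysis and hypoxia genes 14 fell and 1 rose (median -0.89), among them Ndrg1 (-1.77 ± 0.23), the angiogenic factor Vegfa (-1.28 ± 0.22) and the lactate dehydrogenase gene Ldha (-1.20 ± 0.22). At equal weight 1 of 21 rose and none fell, with Ndrg1 at 0.59 and Ldha at 0.45.

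The comparison at equal weight gave small differences for many absorptive genes and kept many injury and oxidase genes high. Of 38 colonocyte genes, 7 were higher and 3 lower at equal weight (median 0.27), and Krt20 differed by -0.13 (adjusted p = 0.95), Slc26a3 by -0.01 and Tmigd1 by -0.45, beside falls of 4.28, 2.98 and 5.50 in the pooled layer. Guca2a and Fabp2 still fell, by 0.79 and 1.10 on the log2 scale. Gpx2 (1.43), Nox1 (1.25), Ly6c1 (4.40), Tnip3 (3.16), Pla2g5 (2.66), Sulf2 (2.08), Krt36 (2.21) and Psmb8 (1.27) kept their calls. Ly6a differed by 3.52, more than its 1.80 in the pooled layer. Among the lists, 5 of 7 oxidase genes and 9 of 23 injury and repair genes were higher and none lower at equal weight, and of 13 Wnt targets 1 was higher and 3 were lower. EnteroPrecur, the commonest type in treated mice, and the enterocytes absent from them are not in this average.

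**Figure D3:**
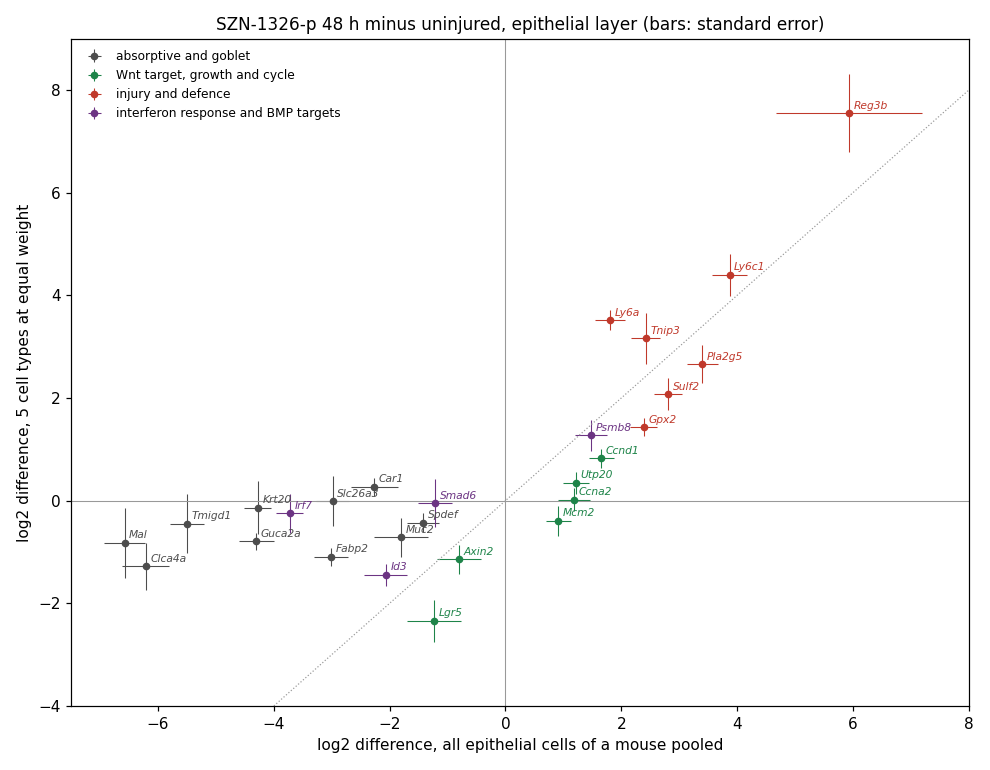
Log2 difference of SZN-1326-p 48 h and uninjured mice for 27 epithelial genes, pooled over all epithelial cells (x axis) and with 5 cell types at equal weight (y axis), with bars for the standard error; the dotted line marks equal values. Absorptive genes such as Krt20 and Slc26a3 lie near 0 on the y axis, and Ly6a, Ly6c1, Tnip3 and Gpx2 stay well above it.

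Oxidase, injury and BMP target genes could also be compared inside single epithelial types. In EnteroPrecur the lone 24 h uninjured mouse formed its own group, and the fit had 3 residual degrees of freedom (mice minus groups). Its p-values therefore leave out the distance of that mouse from the other uninjured mice. Within EnteroPrecur (3 against 3 mice, with no anti-GFP mouse in the fit), 582 of 9562 genes differed (6.09%), 326 higher (3.41%) and 256 lower (2.68%). Gpx2 was at 7.87, 11.1 and 7.37 in treated mice and 2.95, 3.74 and 2.98 in uninjured mice (1.46 ± 0.16, adjusted p = 2.29e-05). Duox2, a hydrogen peroxide producing oxidase, was at 0.568, 0.482 and 0.348 against 0.0112, 0.0412 and 0.00928 (4.18 ± 0.36), and Nox1 rose by 2.62 ± 0.34. Both oxidases were above every uninjured mouse, and 5 of the 7 oxidase genes rose with none lower. Ccl20, which attracts lymphocytes and dendritic cells, rose by 3.94 ± 0.36, Ly6a by 1.78 ± 0.19 and Tap1 by 1.44 ± 0.24. The injury and repair list as a whole was not higher in EnteroPrecur: of 21 measured genes 2 rose (Ly6a and Anxa3) and 3 fell (the growth factor genes Areg and Hbegf, and Krt14), with a median of -0.06. Id3 was at 0.345, 0.494 and 0.536 against 1.88, 2.02 and 2.4 (-2.15 ± 0.18), and Id2 at 0.121, 0.101 and 0.0953 against 0.351 to 0.533. Guca2a (-2.37 ± 0.17) and Fabp2 (-1.58 ± 0.17) fell inside this precursor type also, and 9 of 33 colonocyte genes were lower and 3 higher. Of 28 oxidative phosphorylation genes 8 fell and none rose. The EnteroPrecur count was 209 without treated mouse 1, 238 without treated mouse 3, 277 without uninjured 24 h mouse 2, 905 without uninjured 48 h mouse 2 and 1041 without uninjured 48 h mouse 1.

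Within AltEnteroPC (3 against 3 mice), 716 of 10524 genes differed (6.8%), 636 higher (6.04%) and 80 lower (0.76%). Ly6a was at 6.87, 9.93 and 8.72 in treated and 0.43, 0.627 and 0.876 in uninjured mice (3.62 ± 0.30, adjusted p = 1.11e-06). Tgm3, a transglutaminase that cross-links surface proteins, was at 2.32, 3.74 and 5.57 against 0.466, 0.559 and 0. Its fitted difference is not given, because the mouse at 0 is the only 48 h uninjured mouse in this fit. Of 25 injury and repair genes 13 rose and 1 fell, and of 22 glycolysis and hypoxia genes 9 rose and none fell, where the pooled layer had 14 lower. Id2 (-2.60 ± 0.47) and Tppp3 (-3.78 ± 0.55), a tubulin-binding protein, fell. Krt20 was higher inside this type, by 1.63 ± 0.35 (adjusted p = 0.00803), a call that was lost without uninjured 48 h mouse 2 (adjusted p = 0.61) or treated mouse 2 (0.0557). The count of calls was 1944 without uninjured 24 h mouse 1, 1204 without uninjured 24 h mouse 2 and 353 to 389 without any 1 treated mouse.

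Within TA2, 129 of 10673 genes differed (1.21%), 88 higher (0.825%) and 41 lower (0.384%). Ly6a was at 4.17, 5.18 and 3.1 against 0.181 to 0.449 (3.89 ± 0.35, adjusted p = 6.3e-05), Tnip3 at 0.811, 0.998 and 1.1 against 0.0218 to 0.103 (3.83 ± 0.36) and Gpx2 at 14.6, 17.8 and 14 against 4.83 to 6.19 (1.5 ± 0.15). Cd74, the gene of the invariant chain, a chaperone of MHC class II, was at 0.516, 0.835 and 0.407 against 0.00929 to 0.114 (3.14 ± 0.43, adjusted p = 0.00111). Each of these 4 genes was higher in every treated mouse. Of the injury and repair genes 4 of 27 rose in TA2, 1 of 19 in StemCell and 0 of 22 in BasalGoblet, with none lower. The TA2 count fell to 48 without treated mouse 2, 55 without treated mouse 1, 64 without treated mouse 3, 61 without uninjured 48 h mouse 1 and 81 without uninjured 48 h mouse 2. Within StemCell, only 29 of 10706 genes differed (0.271%), 10 higher (0.0934%) and 19 lower (0.177%), and 773 had an unadjusted p under 0.05. Il18, an epithelial cytokine, was at 1.29, 0.956 and 1.27 against 0.13 to 0.349 (2.55 ± 0.32, adjusted p = 0.000146). Klk1, a kallikrein, was at 0.315, 0.716 and 0.537 against 1.8 to 2.6 (-2.10 ± 0.26), and Ntrk2, a neurotrophin receptor, at 0.0218, 0.0238 and 0.0108 against 0.182 to 0.389 (-3.14 ± 0.42). These 3 kept their calls without any 1 mouse, while counts fell to between 5 and 15 when each of the 7 mice was left out in turn. Axin2 in StemCell was at 0.367, 0.208 and 0.191 against 0.41 to 0.521 (-0.89 ± 0.40, adjusted p = 0.628).

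In the stroma 520 of 11463 genes differed from uninjured (4.54%), 370 higher (3.23%) and 150 lower (1.31%). Inflammatory fibroblast genes, interferon response genes and matrix proteases were among the higher ones. On the mean of the log2 values the split was 257 higher and 174 lower, and with 4 stromal types at equal weight (BaseCryptFB2, CryptFB1, MyoFB and VascEndo) 266 and 87 of 11524. Anti-GFP against uninjured gave 1445 genes (12.6%), 873 higher (7.62%) and 572 lower (4.99%). Between SZN-1326-p and anti-GFP 9 genes (0.0785%) differed, 8 higher with SZN-1326-p (0.0698%) and 1 lower (0.00872%). Without treated mouse 1, 2 or 3 the count against uninjured was 214, 244 and 338, and without uninjured 48 h mouse 1 it was 264.

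Among 27 genes of fibroblast inflammation 9 rose, as did 9 of the 25 in the NF-kB and cytokine list, with none lower in either. Saa3 (chr7:46711998-46715700, minus strand), an acute-phase protein, was at 6.64, 9.77 and 3.61 in treated mice and 0.0878, 0.0107, 0.00344 and 0.0203 in uninjured mice (7.68 ± 0.76, adjusted p = 0.000255), with 13.1, 16.4 and 1.8 after anti-GFP. Cxcl5, a neutrophil attractant, was at 0.767, 0.526 and 0.383 against 0 to 0.00983 (5.16 ± 0.38), and Ccl8, which attracts monocytes, at 1.47, 1.58 and 1.21 against 0.114 to 0.274 (2.90 ± 0.40). The uninjured values of Cxcl5 are all below the 0.01 added before taking logs, so the size of its difference depends on that 0.01. For these 3 genes the treated mice were far above all uninjured mice and overlapped or lay just below the anti-GFP range. Cxcl13, which guides B cells, was at 3.52, 3.13 and 3 against 0.0232 to 0.414 (4.18 ± 0.77, adjusted p = 0.0108), though not without treated mouse 1 (adjusted p = 0.0601) or treated mouse 2 (0.0503). The cytokine Il6 rose by 2.00 ± 0.37 (adjusted p = 0.00551), and Il11, a fibroblast cytokine, was at 0.504, 0.21 and 0.108 against 0.0199 to 0.0337 without passing (adjusted p = 0.0972).

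Other stromal signals and defence genes rose too. Angptl4 (2.52 ± 0.26), a lipase inhibitor, the EGF family ligand Ereg (1.75 ± 0.26) and the NF-kB brake Tnfaip3 (1.73 ± 0.30) rose. The acute-phase protease inhibitor Serpina3n was at 5.7, 6.44 and 5.58 against 1.81 to 2.53 (1.40 ± 0.23), and at 9.91 to 14.7 after anti-GFP. Mmp3, stromelysin, rose by 2.62 ± 0.44 and was 1 of 7 of 18 matrix protease genes that rose, with none lower. Of 33 interferon response genes 19 rose and none fell (median 0.87 beside 0.03 over all genes), where the pooled epithelium had both directions. Among them were Zbp1, a nucleic acid sensor, at 0.282, 0.309 and 0.141 against 0.0339 to 0.0492 (2.26 ± 0.27), and the GTPase Iigp1, at 2.29, 2.26 and 1.83 against 0.498 to 0.903 (1.56 ± 0.20).

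The genes by which the stroma shapes the crypt were also changed. Of 20 Wnt niche genes 7 rose and none fell (median 0.65), and 1 rose and none fell on the mean of the log2 values. Sfrp2 (chr3:83766321-83774316), a secreted modulator that binds Wnt proteins, was at 0.327, 0.198 and 0.271 against 0, 0.00241, 0.0559 and 0.00534 (3.84 ± 0.40, adjusted p = 1.67e-05), and Wif1, a secreted Wnt inhibitor, at 0.137, 0.168 and 0.166 against 0.0272 to 0.0542 (1.84 ± 0.30). Wnt5a, a non-canonical Wnt, was at 1.45, 1.2 and 1.18 against 0.597 to 0.692 (0.98 ± 0.18). Ligand, inhibitor and modulator were each above every uninjured mouse. Grem1, a BMP antagonist of the crypt base, was at 3, 2.98 and 2.72 in treated mice, 1.25, 1.78, 1.03 and 1.21 in uninjured mice and 5.19, 6.29 and 3.73 after anti-GFP (1.16 ± 0.19 against uninjured, adjusted p = 0.00106). The treated mice lay between the other groups without overlap. Bmp4 overlapped the uninjured mice, at 5.18, 5.12 and 4.94 against 5.16 to 6.12 (-0.15 ± 0.15, adjusted p = 0.716), beside 3.2 to 3.83 after anti-GFP. Wnt2b, a canonical Wnt of crypt fibroblasts, was at 0.143, 0.149 and 0.0779 against 0.162 to 0.221 (-0.65 ± 0.28, adjusted p = 0.253). Rspo3, the R-spondin of the crypt base, was at 0.369, 0.54 and 0.408 against 0.223 to 0.335 (0.67 ± 0.18, adjusted p = 0.0413), and lost its call without any 1 mouse except uninjured 24 h mouse 2, with adjusted p of 0.065 to 0.261.

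Several genes of resting fibroblasts and matrix remained low or high. Col18a1, the collagen of basement membranes, was at 7.58, 7.83 and 5.43 against 1.01 to 1.33 (2.55 ± 0.20, adjusted p = 6.54e-07), and it was the 1 collagen and matrix gene of 35 that rose, with 4 lower. Col1a1, the main fibrillar collagen gene, was at 14.7, 14.3 and 12.7 against 12.4 to 15.8, with a 95% interval of the log2 difference from -0.38 to 0.38. The protease inhibitor gene Timp1 was at 1.2, 1.05 and 0.895 in the stroma against 0.426 to 0.516, and did not pass (1.14 ± 0.38, adjusted p = 0.117); its groups did not overlap, as for 18.6% of the stromal genes tested. Tppp3 was at 0.642, 0.539 and 0.843 against 3.25 to 4.83 (-2.56 ± 0.19), and Igfbp6 (chr15:102144362-102149511), an insulin-like growth factor binding protein, at 0.346, 0.238 and 0.526 against 2.07 to 4.42 (-3.28 ± 0.52). C1qtnf3 was at 0.535, 0.496 and 0.662 in treated mice, 2.79 to 3.29 in uninjured mice and 0.218, 0.0733 and 0.242 after anti-GFP (-2.39 ± 0.37, adjusted p = 0.00146). The treated mice lay between the uninjured and the anti-GFP mice. Hhip, a hedgehog antagonist, fell by 2.21 ± 0.38, and Creb5, a transcription factor, by 1.74 ± 0.23. BaseCryptFB1, which held 42.9% of the stroma in uninjured and 0.452% in treated mice, enters these layer means. At equal weight of the 4 types the log2 differences were -2.35 for Igfbp6, -2.43 for Tppp3 and -2.87 for Hhip.

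**Figure D4:**
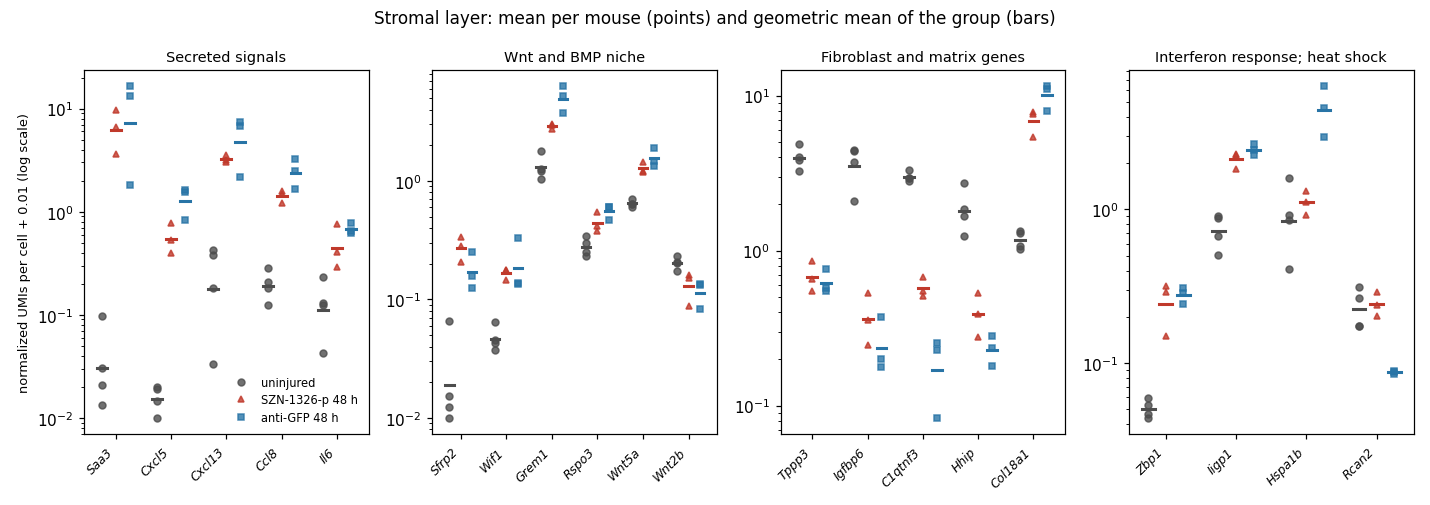
Level of 20 genes in the stromal layer (normalized UMIs per cell plus 0.01, log scale), with 1 point per mouse and bars at the geometric means of the uninjured (circles), SZN-1326-p 48 h (triangles) and anti-GFP 48 h (squares) mice. Saa3 and Cxcl5 lie far above the uninjured mice in both DSS groups, and Hspa1b and Rcan2 lie within the uninjured range in treated mice and outside it after anti-GFP.

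Fibroblast types present in both groups were compared within type. In CryptFB1, 357 of 11403 genes differed (3.13%), 270 higher (2.37%) and 87 lower (0.763%), with 15 of 33 interferon genes, 13 of 23 fibroblast inflammation genes, 7 of 18 proteases and 5 of 14 Wnt niche genes higher and none of these lower. The chemokine Ccl8 was at 3.32, 3.1 and 1.05 against 0.118, 0, 0 and 0, and Lgi2 at 2.25, 2.09 and 0.74 against 0 to 0.0511 (6.17 ± 0.61, adjusted p = 9.31e-05). Igfbp6 was at 0.104, 0.189 and 0.186 against 1.18 to 3.46 (-3.76 ± 0.47), and Tppp3 at 0.0604, 0.036 and 0.128 against 0.907 to 2.05 (-4.0 ± 0.66). Pamr1 fell by 2.51 ± 0.44. In BaseCryptFB2, 252 of 11575 genes differed (2.18%), 198 higher (1.71%) and 54 lower (0.467%). The aggrecanase Adamts15 was at 0.77, 1.21 and 0.888 against 0 to 0.0535 (5.08 ± 0.52, adjusted p = 5.87e-07). Wnt2, a canonical Wnt, was at 0.025, 0.00905 and 0.0102 against 0.206 to 0.469 (-3.69 ± 0.80, adjusted p = 0.0065; 0.064 without treated mouse 2), and Has2, a hyaluronan synthase, fell by 2.73 ± 0.54. The CryptFB1 count was 130 without treated mouse 1, 160 without treated mouse 2, 222 without uninjured 48 h mouse 1 and 766 without uninjured 24 h mouse 2. The BaseCryptFB2 count was 116, 93, 144 and 722 without the same 4 mice.

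In myofibroblasts (MyoFB, 3 against 3 mice), 207 of 11223 genes differed (1.84%), 160 higher (1.43%) and 47 lower (0.419%). Hhip was at 2.34, 1.41 and 4.09 against 20.1, 21 and 19.7 (-3.08 ± 0.48, adjusted p = 0.00515), and Serpina3n at 3.22, 2.72 and 2.04 against 0.126 to 0.203 (4.00 ± 0.53). The adhesion molecule Vcam1 was at 0.554, 0.783 and 0.71 against 0, 0.0698 and 0.0399, given without a fitted difference because 1 uninjured mouse was at 0. Iigp1 rose by 4.57 ± 0.40, and the LIM protein gene Crip2 fell by 1.76 ± 0.28. Of 34 collagen and matrix genes 8 rose in MyoFB and none fell, and in BaseCryptFB2 10 of 33 rose and 2 fell. In CryptFB1 2 of 34 rose and 1 fell (median -0.05); whether the types differ was not tested. The MyoFB count was 79 without treated mouse 2, 98 without treated mouse 1 and 137 without uninjured 24 h mouse 2. Vascular endothelium differed in 13 of 11487 genes (0.113%), among them Noct, which encodes a circadian nocturnin phosphatase, at 0.514, 0.678 and 0.402 against 0 to 0.11 (3.31 ± 0.52, adjusted p = 0.00227). This count was 4 without any 1 treated mouse, 5 without uninjured 48 h mouse 1, 40 and 58 without uninjured 24 h mouse 1 and 2, and 42 without uninjured 48 h mouse 2.

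In the immune layer 1753 of 11423 genes differed from uninjured (15.3%), 1176 higher (10.3%) and 577 lower (5.05%). Neutrophil and monocyte genes were among the higher ones and plasma cell and macrophage genes among the lower ones. On the mean of the log2 values the split was 681 higher and 1395 lower. Anti-GFP against uninjured gave 3189 genes (27.9%), 1853 higher (16.2%) and 1336 lower (11.7%), and 17 (0.149%) differed between SZN-1326-p and anti-GFP. Its 2 commonest types were Macrophage and Plasma_IgA in uninjured mice and InjuryMono2 and Macrophage in treated mice.

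Of 14 neutrophil genes 11 rose and none fell, and 3 rose on the mean of the log2 values. S100a8 (chr3:90668978-90670035), a subunit of calprotectin, was at 39.9, 32.5 and 24.2 in treated mice and at 7.18, 0, 0 and 0 in uninjured mice, and 137, 151 and 31.4 after anti-GFP. The fitted difference depends on the pseudocount where a mouse is at 0, so the levels are given alone, as for the chemokine receptor Cxcr2 (3.14, 2.3 and 2.41 against 1.49, 0, 0 and 0). The same limit holds for the differences given above for Cxcl5, Sfrp2, Lgi2, Adamts15 and Noct, where the lowest uninjured mouse was at 0. Of 16 inflammatory monocyte genes 12 rose and 1 fell (median 2.51 beside 0.06). Il1b was at 53.9, 58.6 and 59 against 13.4, 9.01, 9.29 and 7.19, with 102, 106 and 59 after anti-GFP (2.59 ± 0.25 against uninjured, adjusted p = 2.87e-07). The receptor Clec4e (6.29 ± 0.71), the chitinase-like Chil3 (4.82 ± 0.78), the matrix protein Thbs1 (4.11 ± 0.42), the interleukin 1 antagonist Il1rn (3.69 ± 0.21), Ptgs2 (cyclooxygenase 2; 3.42 ± 0.29) and the cytokine Osm (2.95 ± 0.25) were higher in every treated mouse than in any uninjured mouse. Of 22 glycolysis and hypoxia genes 11 rose and none fell, in contrast to the pooled epithelium. The lactate exporter Slc16a3 (4.25 ± 0.73), Ndrg1 (3.46 ± 0.28) and Vegfa (2.81 ± 0.27) were among them. Of 34 interferon genes 14 rose and 1 fell, with the GTPase Gbp2 at 2.19, 1.52 and 1.02 against 0.163 to 0.281 (2.64 ± 0.43). Mmp9, gelatinase B of neutrophils, was at 2.18, 3.29 and 2.27 against 0.0367 to 0.336 (4.14 ± 0.80), and Ccr7, the receptor of migrating dendritic cells, rose by 2.63 ± 0.34. Inside Macrophage, the 1 immune type with at least 10 cells in each of the 7 mice, Il1b, Mmp9 and Ccr7 did not pass and had the opposite sign. Il1b was at 20.3, 7.17 and 13.6 in macrophages of treated mice against 13.4 to 20.5 (-0.40 ± 0.30, adjusted p = 0.801), and the differences there were -1.64 ± 1.99 for Mmp9 (adjusted p = 0.91) and -0.35 ± 0.95 for Ccr7 (adjusted p = 0.963).

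Plasma cell genes were much lower. Jchain (chr5:88519809-88527891, minus strand), the joining chain of IgA, was at 26.9, 30 and 17.4 against 435, 458, 382 and 462 (-4.16 ± 0.65, adjusted p = 0.00132). Mzb1, a chaperone of antibody secretion (-4.20 ± 0.52), the plasma cell survival receptor Tnfrsf17 (-5.50 ± 0.47) and the homing receptor Ccr10 (-4.84 ± 0.74) fell, as did 14 of 20 unfolded protein response genes. Their levels after anti-GFP were within or near the treated range, with Jchain at 10.2, 29.1 and 21. Of 18 macrophage genes 11 fell and none rose (median -0.95). The complement gene C1qa was at 9.98, 12.5 and 10.6 against 20 to 27.2 (-1.12 ± 0.26), the fractalkine receptor Cx3cr1 at 1.06, 0.975 and 1.51 against 2.18 to 3.53 (-1.22 ± 0.28) and the chemokine Pf4 at 2.68, 2.7 and 1.61 against 7.5 to 10.3 (-1.99 ± 0.26). Each was below all uninjured mice. The macrophage share of the layer was lower too (11.9 against 35.7%), and within cells annotated as Macrophage only 1 of the 18 genes fell, Cd81, a tetraspanin (-0.89 ± 0.22, adjusted p = 0.0428), with a median of -0.34.

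**Figure D5:**
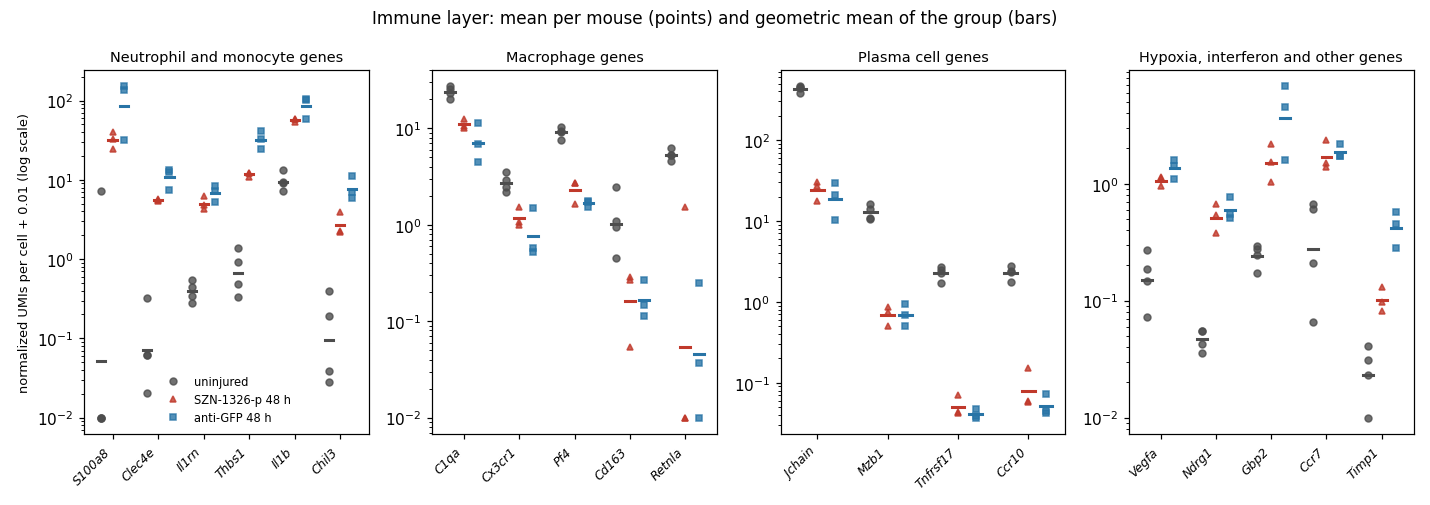
Level of 20 genes in the immune layer (normalized UMIs per cell plus 0.01, log scale), with 1 point per mouse and bars at the geometric means of the uninjured (circles), SZN-1326-p 48 h (triangles) and anti-GFP 48 h (squares) mice. Plasma cell genes are as low in treated as in anti-GFP mice, and Timp1 lies between the uninjured and the anti-GFP mice.

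Within cells annotated as Macrophage, 78 of 11197 genes differed (0.697%), 38 higher (0.339%) and 40 lower (0.357%). Retnla (chr16:48842551-48844461), a secreted product of alternatively activated macrophages, was listed at 0 in macrophages of all 3 treated mice and at 12.9, 6.53, 15.9 and 10 in the uninjured mice. With cells pooled over the mice of a group, 0 of 120 macrophages of treated mice held a Retnla UMI (exact 95% interval 0 to 3.03%), against 13 of 176 (7.39%, interval 3.99 to 12.3%) with 1194 UMIs in uninjured mice, and 1 of 127 after anti-GFP. These intervals cover counting error only, not the spread between mice. Median depth was 7912 and 7641 UMIs per macrophage in treated and uninjured mice, and 0.198% of uninjured epithelial cells held a Retnla UMI. In treated mice 92 Retnla UMIs lay in 3 InjuryMono2 cells. The kinase Sgk1 was at 2.47, 2.85 and 3.46 against 0.49 to 1.17 (1.83 ± 0.28, adjusted p = 8.19e-05), Wfdc17, an inhibitor-like protein of activated macrophages, at 14.6, 15.6 and 8.09 against 1.53 to 5.31 (2.03 ± 0.25), and Il18bp, the decoy of interleukin 18, at 0.796, 0.972 and 0.728 against 0.0142 to 0.225 (3.29 ± 0.58). All 3 were above every uninjured mouse and kept their calls without any 1 mouse. The chemokine Ccl24 was at 0.111, 0 and 0 against 0.242 to 0.556. The count was 32 without treated mouse 2, 51 without treated mouse 1, and 43 to 45 without uninjured 48 h mouse 2, uninjured 24 h mouse 1 or uninjured 48 h mouse 1. In CD8 T and NK cells 9 of 10629 genes (0.0847%) differed, 7 higher (0.0659%) and 2 lower (0.0188%), with 684 at an unadjusted p under 0.05. Only 2 treated mice had enough of these cells. The count was 0 without either of them, where the lone treated mouse left was assumed to vary like the other groups, and 36, 14 and 6 without uninjured 48 h mouse 1, 48 h mouse 2 and 24 h mouse 2.

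Some transcripts changed in layers that are not known to make them, and the part of RNA from other cells in these values was not tested. Guca2a, a colonocyte and goblet product, was at 0.122, 0.0578 and 0.219 in the stroma of treated mice against 0.769 to 2.43, and at 0.288, 0.0757 and 0.267 in the immune layer against 1.16 to 3.66. Reg3b was at 0.839, 0.197 and 0.947 in the stroma against 0 to 0.0143, and at 1.88, 0.425 and 2 in the immune layer against 0 to 0.0172. Both followed their direction in the epithelium. In the epithelium the plasma cell gene Jchain was at 0.0142, 0.0121 and 0.0197 against 0.144 to 1.21 (-4.17 ± 0.40), as in the immune layer. The gut hormone genes Gcg and Insl5 were at 0.84, 3.77 and 3.64 and at 1.05, 3.96 and 2.48 in the immune layer of treated mice, against 0 to 0.123 and 0 to 0.187 in uninjured mice, and at most 0.0121 and 0.00458 after anti-GFP. Enteroendocrine genes in the epithelium did not rise (0 of 14, with 1 lower).

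Some genes passed the test in opposite directions for anti-GFP against uninjured and for SZN-1326-p against anti-GFP. Past the level and name filters there were 122 such epithelial, 4 stromal and 10 immune genes. Both comparisons share the anti-GFP mice and chose the genes, so the levels below are a description with no test. In the epithelium Nos2, the inducible nitric oxide synthase, was at 0.0409, 0.0391 and 0.0285 in treated mice and 0, 0.0019, 0.00234 and 0.00308 in uninjured mice, and at 0.925, 0.326 and 0.14 after anti-GFP. The treated mice lay between the other groups without overlap, above all uninjured mice. Alox5ap, which feeds leukotriene synthesis and marks tuft cells, was at 0.0755, 0.0173 and 0.0195 against 0.0402 to 0.121 and 0.658, 0.178 and 0.498 after anti-GFP. The treated mice overlapped the uninjured mice, and none reached an anti-GFP mouse. In the stroma the heat shock gene Hspa1b was at 1.31, 1.11 and 0.914 in treated, 0.397, 0.84, 1.59 and 0.907 in uninjured and 2.96, 6.32 and 4.6 in anti-GFP mice. Rcan2, a calcineurin regulator, was at 0.194, 0.279 and 0.229, 0.302, 0.164, 0.256 and 0.165, and 0.0747, 0.0779 and 0.0793 in the same order. For both stromal genes the treated mice lay within the uninjured range. In the immune layer the sulfotransferase Sult1a1 was at 0.345, 0.274 and 0.594 against 0.511 to 0.662 and 0.0639 to 0.0946 after anti-GFP, and the cyclase Qpct at 0.287, 0.213 and 0.317 against 0.106 to 0.309 and 0.0475 to 0.062. Timp1, the metalloprotease inhibitor, lay between, at 0.122, 0.0882 and 0.0718 in treated, 0 to 0.0311 in uninjured and 0.274 to 0.557 in anti-GFP mice, and differed by -0.49 from uninjured on the log2 scale inside Macrophage.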

How the data were processed

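Single-cell RNA-seq counts were deposited per cell with the authors' layer and cell type annotation. The deposited values are log2 of UMI counts divided by a size factor, plus 1; all 60867816 nonzero entries were whole multiples of 1 step per cell (tolerance 1e-06). Cell Ranger 3.0.2 and mm10 were used per the submitters' processing notes; the size factor method, cell filters and treatment of doublets are not given in the sources used here. Values were un-logged and averaged per mouse and layer. Genes with a mean of at least 0.05 in at least 2 mice were tested on log2(mean + 0.01) with limma 3.58.1 (trend, robust; R 4.3.3, Python 3.11.15) in 1 fit of all 16 mice in 6 groups, with Benjamini-Hochberg adjustment at 0.05. Uninjured is the mean of the 24 h and 48 h uninjured groups. Within AltEnteroPC the 48 h group held mouse 2 alone, and within EnteroPrecur, MyoFB and TcellCD8_NK the 24 h group held mouse 2 alone. That mouse then weighed as much as the 2 mice of the other group together. Alone in its group, it added nothing to the estimated spread, so p-values in these types leave out its distance from the other uninjured mice. Residual degrees of freedom were 9 in AltEnteroPC and MyoFB, 4 in TcellCD8_NK and 3 in EnteroPrecur. The layer fits had 10. A log2 difference on this scale understates changes of low genes, and its size depends on the added 0.01 where a mouse is at 0. Tests within a cell type used mice with at least 20 of its cells and needed 2 treated and 3 uninjured mice; averages at equal weight took types with at least 10 cells in each of the 7 mice. The labels name the mice as replicates, and p-values measure the spread between mice of the same group in a fit. UMI counts and intervals cover counting error only.

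Gene positions are from GENCODE vM21 (mm10) and promoters from RefSeq. Genes were named if they passed the test, had a mean of at least 0.2 in the higher group, did not overlap between groups and kept their direction against the 48 h uninjured mice (up to 10 per direction and layer), with gene models, ribosomal, mitochondrial, immunoglobulin and other-layer marker genes left out; up to 5 passing genes from each of 39 lists, 25 preset genes, and up to 6 per layer that passed in opposite directions for anti-GFP against uninjured and SZN-1326-p against anti-GFP were added. Members and lists were chosen with earlier results of these data known. Scripts were tested on simulated data. 1 gene that met the rule is not reported here.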

Additional observations from a re-analysis of the deposited data

Results flagged for a closer look

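Among the uninjured mice, 187 groups of 4 values were examined for 1 mouse far from the other 3. The groups were genes and shares the text uses, and all cell types, and 17 were set apart. For normally spread values chance alone sets apart about 1 group in 20. That rate does not hold where 3 mice are at 0, because any value above 0 in the other mouse is then always set apart. Mouse 1 of the 24 h collection was the one in most of the 17. In its epithelium Car1 was at 16.7 against 40.5 to 41.0 in the others, Psmb9 at 0.0766 against 0.151 to 0.167, and Id2 at 0.507 against 0.685 to 0.716. In its immune layer S100a8 was at 7.18, S100a9 at 12.9, Cxcr2 at 1.49 and Acod1 at 0.634, each at 0 in the other 3 mice, and Qpct was at 0.106 against 0.261 to 0.309. Its activated neutrophils held 2.30% of the immune layer (2 cells), against 0 elsewhere. Its AltEnteroPC held 5.77% of the epithelium against 1.26 to 1.98%, its TA1 7.32% against 0.855 to 1.76%, and its pericytes 1.5% of the stroma against 0.696 to 0.833%.

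In mouse 2 of the 24 h collection dendritic cells held 8.80% of the immune layer, against 4.6 to 4.92%. In mouse 1 of the 48 h collection BaseCryptFB1 held 46.6% of the stroma, against 41.5 to 41.7%, and InjuryMono1 0.820% of the immune layer, against 0. In mouse 2 of the 48 h collection the type ICCajal held 2.94% of the stroma, against 0.833 to 1.16%, and InjuryCryptFB1 0.294%, against 0.

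For 7 pairs every treated mouse moved one way in 1 layer and the other way in another, as log2 differences from uninjured; these differences between layers were not tested. Ifit1 was at -2.0 in the epithelium and 1.03 in the stroma. Between the epithelium and the immune layer, Irf7 was at -3.73 and 1.34, Id3 at -2.07 and 1.23, Ldha at -1.20 and 0.72, Ndrg1 at -1.77 and 3.46, and Vegfa at -1.28 and 2.81. Igfbp6 was at -3.28 in the stroma and 4.85 in the immune layer.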

How the results depend on the processing

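Of 2867 recomputed single-gene values, 2523 kept direction and side of the threshold, 301 lost the call, 18 gained it and 25 changed sign; the causes were not tested. With each cell type at equal weight 256 genes differed in the epithelium and 78 in the immune layer, where 1 type could be used, and the sign changed for Car1 (0.27), Mki67 (-0.25), Mcm2 (-0.40), Ldha (0.45), Ndrg1 (0.59) in the epithelium, Bmp4 (0.18) and Rcan2 (-0.32) in the stroma and Il1b (-0.40), Mmp9 (-1.64), Ccr7 (-0.35) and Timp1 (-0.49) in the immune layer. Against only the 2 uninjured mice of 48 h, 1829 epithelial and 236 stromal genes differed, with Hspa1b at -0.13 and Qpct at -0.14 (-0.017 on mean log2 values). A term for 4 libraries of 24 h gave 1200 stromal genes. Without cells holding markers of another layer, which left 4.44 to 23.6% of stromal and 1.60 to 24.9% of immune cells, 192 stromal and 2902 immune genes differed, the median of all genes moved by 0.288 and 1.73, and Cx3cr1 (1.20), Pf4 (0.34), Cd163 (1.66), Jchain (4.14), Mzb1 (3.07), Ccr10 (1.11) and Sult1a1 (2.10) changed sign. The uninjured immune means then rested on 2, 2, 14 and 7 cells per mouse.

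Leaving out 1 mouse at a time gave 2102 to 2793 epithelial, 214 to 494 stromal and 1239 to 1944 immune genes, Rcan2 at -0.10 to 0.32 and Qpct at -0.049 to 0.56. Within types it gave 353 to 1944 (AltEnteroPC), 1 to 166 (BasalGoblet), 209 to 1041 (EnteroPrecur), 5 to 15 (StemCell), 48 to 171 (TA2), 32 to 72 (Macrophage), 0 to 36 (TcellCD8_NK), 93 to 722 (BaseCryptFB2), 130 to 766 (CryptFB1), 79 to 239 (MyoFB) and 4 to 58 (VascEndo), 1066 to 3621 in all beside 2383; in BasalGoblet and TcellCD8_NK this can leave 1 treated mouse, assumed to vary like the others; StemCell gave 90 at 50 cells per mouse. Cell types whose shares did not overlap numbered 23 to 26. With the replicate number as a block, 3060 epithelial, 552 stromal and 1852 immune genes differed; same-numbered mice correlated at -0.149 to 0.244, so the numbers were not taken as pairs.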
